A study of Rattus norvegicus with 288 samples.

Results

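Sorafenib, an oral inhibitor of RAF kinases and of the receptors for vascular endothelial growth factor (VEGF) and platelet-derived growth factor, was given to rats and the heart was sampled 1 h later. The samples described are the 16 heart arrays labelled 1 h whose oral dose was sorafenib (8 rats) or its vehicle F68/PG/PEG400 (8 rats), of 288 arrays in the whole series and 96 from heart. All animals were male Sprague-Dawley rats aged 8 weeks with a femoral vein cannula, and every one had first received a 30 min intravenous infusion. The 4 groups of 4 rats were D5W (dextrose in water) then sorafenib at 25 mg/kg, D5W then F68/PG/PEG400 (Pluronic F68, propylene glycol and a polyethylene glycol), oxaliplatin at 15 mg/kg then sorafenib, and oxaliplatin then F68/PG/PEG400. The oral dose followed 30 min after the infusion, so all 16 hearts carry an infusion and a gavage as well as the drug. The tissue was the apex with both ventricles, and 1 array was run per rat. A code that ends the sample titles, whose meaning is not given, holds 1 number in all 8 sorafenib arrays and another in all 8 vehicle arrays, so what it marks and the drug cannot be told apart. The values are log2 intensities of an Affymetrix whole-genome rat array, and a difference of 1 on this scale is a doubling. The sorafenib effect is the difference of sorafenib minus F68/PG/PEG400, averaged over both infusions. Each infusion's own difference is given for some genes only, and the other effects are the average alone. A gene was called at a Benjamini-Hochberg adjusted p under 0.05 in limma's moderated test.

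Growth factor receptors on endothelial and other cells pass their signal through RAS, RAF, MEK and ERK kinases. Active ERK turns on immediate early genes within minutes, among them transcription factors of the Egr, Fos and Klf families, and also its own brakes, the dual-specificity phosphatases (Dusp) and Sprouty proteins. Transcripts of these genes are short-lived, so they are often read as a record of recent kinase signalling. In the heart, VEGF receptors act mainly on the capillary endothelium, which lies between the cardiomyocytes.

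The labelled tissue fitted its markers. The mean of the cardiomyocyte list lay between 14.2 and 14.3 in sorafenib hearts and between 14.1 and 14.3 in F68/PG/PEG400 hearts, and all 96 heart arrays had their heart markers above their kidney and liver markers. The list of liver genes averaged 6.06 to 8.37 in sorafenib hearts and 5.79 to 7.57 in F68/PG/PEG400 hearts, and its highest array was oxaliplatin then sorafenib replicate 3. RNA quality was read from the 3′ minus 5′ signal of the beta-actin control probe sets, which is larger in more degraded RNA. After D5W its median was 0.271 in sorafenib hearts and 0.373 in F68/PG/PEG400 hearts. After oxaliplatin the order was turned, with 0.357 in sorafenib hearts and 0.290 in F68/PG/PEG400 hearts. With this measure as a covariate, 928 genes were called for the average effect described next, against 892 without it, 1104 against 1379 after D5W and 141 against 243 after oxaliplatin. In whole tissue, fewer cells of a type and less RNA per cell cannot be told apart.

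At 1 h the sorafenib effect was broad in number and small in size. Of 11316 genes tested, 892 were called (7.88%), 293 higher (2.59%) and 599 lower (5.29%), and 0 changed 2-fold or more. The largest fall was 0.64 and the largest rise 0.63 on the log2 scale, in Acyp2 and Dgkb. The median over all genes tested was -0.03. Taken per infusion, 1379 genes (12.2%) were called after D5W, 287 higher (2.54%) and 1092 lower (9.65%), and 243 (2.15%) after oxaliplatin, 79 higher (0.698%) and 164 lower (1.45%). Single arrays moved these counts: without oxaliplatin then sorafenib replicate 3 the oxaliplatin count was 10, and without oxaliplatin then F68/PG/PEG400 replicate 3 the count for the average was 497. A fit of the 16 arrays alone called 49 genes after oxaliplatin and 818 after D5W. The count for the average was 415 with the heart arrays quantile-normalized again, 206 higher and 209 lower, so the excess of falls depends on the scaling. Centring each array on its median turned the balance, to 408 higher and 260 lower.

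On the deposited scale the excess of falls lay among genes of middle and high level, and its size in each infusion depended on the scaling. With quantile normalization 181 genes were higher and 145 lower after D5W, and 97 higher and 216 lower after oxaliplatin. With centring the counts were 542 higher and 217 lower after D5W, and 75 higher and 256 lower after oxaliplatin. On the deposited scale, genes with a mean level between 9 and 10 had a median difference of -0.10 after D5W and 0.00 after oxaliplatin. Of the 599 genes called lower, 50 had a mean level under 7, against 195 of the 293 called higher. The median level was 6.60 for genes called higher, 9.29 for genes called lower and 8.29 for all genes tested. At 6 h the median of the 9 to 10 bin was 0.05, on the other side of 0.

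**Figure D1:**
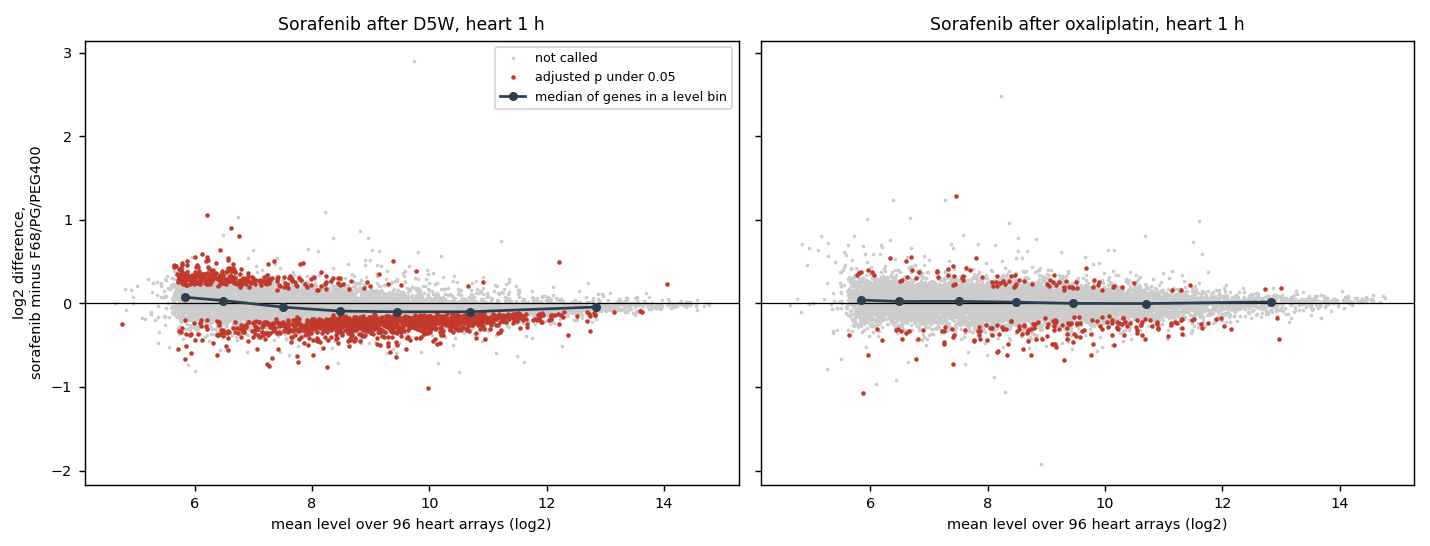
Sorafenib minus F68/PG/PEG400 at 1 h (log2) against the mean level over 96 heart arrays, after D5W (left) and after oxaliplatin (right), 1 point per gene, called genes in red and medians of level bins as a dark line. After D5W the line lies above 0 for dim genes and near -0.10 for genes between 9 and 12, and after oxaliplatin it stays within 0.04 of 0.

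Of the 15 largest falls, Dusp5 and Dusp6 were on the list of ERK pathway targets and Klf2 on that of immediate early genes. Rgs16, a brake on G protein signalling, fell by 0.63, Dusp6, the phosphatase that removes phosphate from ERK, by 0.52, and Sgk1, a kinase gene induced by glucocorticoids and growth factors, by 0.50. Hlx and Bcl6b, transcription factors of the endothelium and of other cells, fell by 0.45 and 0.44, and Plk2, a kinase gene of the immediate early kind, by 0.43. These 6 genes passed the test under all 27 alternative settings, and so did Acyp2 (an acylphosphatase of muscle) and Ccdc127, while Leo1 (a subunit of the PAF1 elongation complex) passed under the 26 in which it was tested. The remaining 6, which lost the call under at least 1 setting, were G0s2, RT1-DMb, Ch25h, Dusp5, Klf2 and Tnfaip3.

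Dusp6 stood at 8.54, 8.36, 8.35 and 8.27 after D5W then sorafenib, against 8.89, 8.72, 8.94 and 8.65 after D5W then F68/PG/PEG400. With oxaliplatin first it stood at 8.21, 8.52, 8.67 and 8.31 with sorafenib, against 9.28, 9.30, 8.72 and 8.88 with F68/PG/PEG400. Within each infusion every sorafenib heart was below every vehicle heart, and over both infusions the ranges met at 8.67 and 8.65. The effect was -0.52 ± 0.12 (SE, 8 against 8 rats; adjusted p = 0.00277), with -0.42 after D5W (adjusted p = 0.0748) and -0.61 after oxaliplatin (adjusted p = 0.0288). A second probe set of Dusp6 fell by 0.47, and the remaining one, with an effect of -0.28 and an SE of 0.29, did not pass.

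Bcl6b stood at 8.83, 8.90, 8.97 and 8.85 after D5W then sorafenib, against 9.40, 9.37, 9.40 and 9.18 after D5W then F68/PG/PEG400. In the rats infused with oxaliplatin it stood at 8.73, 8.82, 8.84 and 8.69 with sorafenib, against 9.12, 9.17, 9.24 and 9.28 with F68/PG/PEG400. All 8 sorafenib hearts were below all 8 vehicle hearts, and the effect was the same size after both infusions, -0.45 after D5W and -0.43 after oxaliplatin. Its average was -0.44 ± 0.08 (SE; adjusted p = 0.000365), a fall by 26.3%. The other 3 probe sets of Bcl6b were lower too, by 0.34 to 0.44, and all passed.

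Hlx and Plk2 shared this separation. The 8 sorafenib hearts had 7.80 to 8.09 for Hlx, with a median of 7.94, and the 8 F68/PG/PEG400 hearts 8.21 to 8.71, with a median of 8.37. The effect on Hlx was -0.45 ± 0.07 (SE; adjusted p = 9.76e-05), the smallest adjusted p among the falls named here. For Plk2 the sorafenib hearts had 8.67 to 9.10 (median 8.86) and the F68/PG/PEG400 hearts 9.16 to 9.52 (median 9.29), an effect of -0.43 ± 0.08 (adjusted p = 0.00058). Over all genes tested, 38 (0.336%) had all 8 sorafenib values below all 8 vehicle values, and 23 (0.203%) had them above. Of the 15 largest falls, Hlx, Bcl6b and Plk2 were among those 38. Chosen after the values were seen, Gja5, the connexin of arterial endothelium and the conduction system, was another, with 7.64 to 7.96 in sorafenib hearts and 7.98 to 8.22 in F68/PG/PEG400 hearts (effect -0.26, adjusted p = 0.00941).

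Rgs16 and Sgk1 showed 2 levels of vehicle heart. Rgs16 stood at 6.90, 7.17, 6.88 and 7.11 after D5W then sorafenib and at 7.58, 7.28, 7.70 and 7.68 after D5W then F68/PG/PEG400. With oxaliplatin first it stood at 7.28, 7.34, 7.32 and 7.43 with sorafenib and at 8.21, 7.71, 7.98 and 8.35 with F68/PG/PEG400. Sorafenib hearts were below the vehicle hearts of the same infusion with no overlap, and on average Rgs16 fell by 35.5% (-0.63 ± 0.12, adjusted p = 0.00075). Sgk1 stood at 9.11, 8.85, 8.96 and 8.98 after D5W then sorafenib and at 9.13, 9.41, 9.31 and 9.32 after D5W then F68/PG/PEG400. With oxaliplatin first it stood at 9.27, 9.29, 9.05 and 9.12 in sorafenib hearts and at 10.03, 9.77, 9.97 and 9.71 in F68/PG/PEG400 hearts. The vehicle hearts infused with oxaliplatin were the highest of the 4 groups for Sgk1, and all 4 lay above the other 12. The effect on Sgk1 was -0.32 after D5W (adjusted p = 0.124) and -0.68 after oxaliplatin (adjusted p = 0.00797), and the difference between both, -0.36 ± 0.20, did not pass (adjusted p = 0.293).

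**Figure D2:**
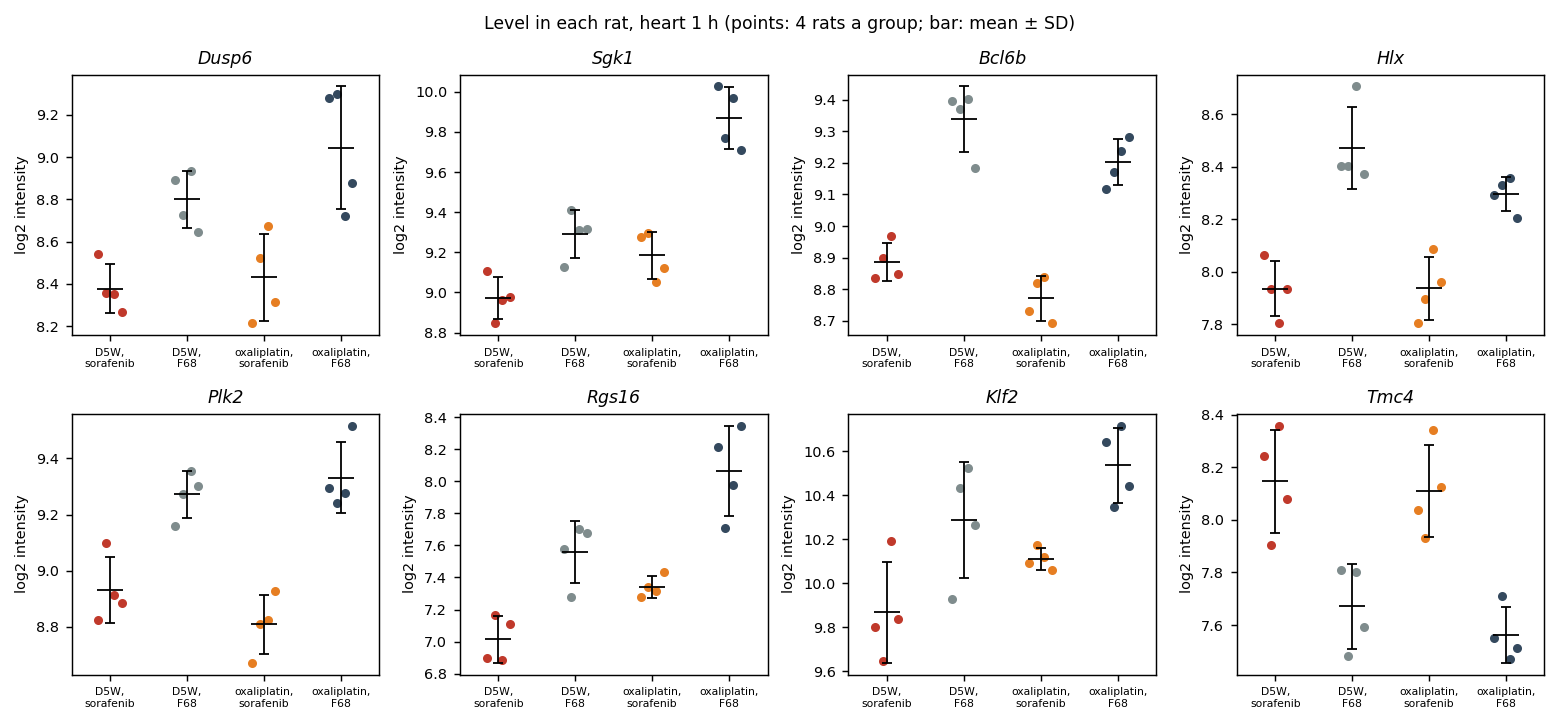
Level of 8 genes in each rat at 1 h (log2 intensity, points), with the mean and SD of each group of 4 as a bar, for D5W then sorafenib, D5W then F68/PG/PEG400 (F68), oxaliplatin then sorafenib and oxaliplatin then F68. Bcl6b, Hlx and Plk2 are lower in all 8 sorafenib hearts than in all 8 vehicle hearts, Sgk1 is highest after oxaliplatin then F68, and Tmc4 is higher in all 8 sorafenib hearts.

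The kinases that sorafenib binds changed little at the transcript level. Of 12 listed receptor and RAF kinases, 8 were tested, and 0 rose and 1 fell, Araf, a RAF isoform (-0.21 ± 0.05, adjusted p = 0.00645). Its other probe set, of similar level, had 0.01 (adjusted p = 0.884), and the mean of both was -0.099. The list's median was -0.07, and of all genes 5.29% fell and 2.59% rose. Taken per infusion, 2 of the 8 were called lower after D5W and 0 after oxaliplatin, where 9.65% and 1.45% of all genes were lower. Kdr, the main VEGF receptor of endothelium, had an effect of -0.21 ± 0.09 that did not pass (adjusted p = 0.139). Flt1 and Flt4, the other VEGF receptors, had -0.04 and -0.07, and Pdgfra and Pdgfrb, the receptors of platelet-derived growth factor, 0.01 and -0.13. Ret had 0.07 and Fgfr1 -0.07.

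The ERK pathway targets called were feedback inhibitors. Of 15 tested, 3 fell, Dusp6, Dusp5 and Spry1, 0 rose and 12 did not pass, with a median of -0.11, where 5.29% of all genes fell. Taken per infusion, 1 of the 15 was called lower after D5W and 1 after oxaliplatin, where 9.65% and 1.45% of all genes were lower. Dusp5, a phosphatase of nuclear ERK, stood at 7.52, 7.54, 7.35 and 7.14 after D5W then sorafenib, against 7.98, 7.98, 8.11 and 7.98 after D5W then F68/PG/PEG400. In the rats infused with oxaliplatin it stood at 7.27, 7.13, 7.34 and 7.66 with sorafenib, against 7.66, 7.85, 7.29 and 7.98 with F68/PG/PEG400, and these groups overlapped. Its average of -0.49 ± 0.16 (adjusted p = 0.0401) lost the call under 13 of 27 settings. Spry1, a Sprouty inhibitor of receptor signalling, fell by 0.27 ± 0.08 (adjusted p = 0.0343), and Spry4 had -0.26 ± 0.09 (adjusted p = 0.0509). Egr1, the zinc finger factor most used as an ERK readout, had -0.47, but its SE was 0.20 and it did not pass (adjusted p = 0.14). Its 8 sorafenib hearts spread from 6.57 to 8.64 and its 8 vehicle hearts from 7.24 to 8.60. Under quantile normalization or cyclic loess 1 of the 15 was called, also a fall. Over all 11316 genes, 209 were lower with quantile normalization and 222 with cyclic loess.

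Most immediate early genes did not pass. Of 21 tested, 6 fell, 1 rose and 14 did not pass, with a median of -0.11, where 5.29% of all genes fell and 2.59% rose. Taken per infusion, 1 of the 21 was called lower and 1 higher after D5W, and 0 after oxaliplatin. Of all genes 9.65% were lower and 2.54% higher after D5W, and 1.45% and 0.698% after oxaliplatin. The 6 falls are thus calls of the average, with no excess of falls in the list in either infusion. Klf2, Klf4 and Klf6, zinc finger factors of which Klf2 and Klf4 are known for quiescent, flow-exposed endothelium, fell by 0.42, 0.33 and 0.38. Dusp1, a phosphatase of stress-activated kinases, fell by 0.37, Zfp36, an RNA-binding protein that shortens the life of cytokine transcripts, by 0.29, and Ier2 by 0.22. Klf6 had 3 probe sets, which fell by 0.38 to 0.58. Klf2 had 4, with differences from -0.78 to -0.09, of which the brightest is the value given (-0.42 ± 0.13, adjusted p = 0.0321). Dusp1 had another probe set, which fell by 0.62. Fos was called higher by 0.25 (adjusted p = 0.0126), yet its other probe set had -0.32 with an SE of 0.32, and the mean of both was -0.039, so no direction can be given for Fos. Klf4 and Klf6 passed under all settings. Under quantile normalization or cyclic loess 2 of the 21 fell and 1 rose. Over all 11316 genes, 209 fell and 206 rose with quantile normalization, and 222 and 219 with cyclic loess.

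The promoters of these early genes are shown for short motifs known from such genes, the cyclic AMP response element (CRE, TGACGTCA) and the serum response element (CArG box), which binds serum response factor. RefSeq promoter windows of rat assembly GRCr8, from 250 bases before to 50 bases after the annotated start, matched 18 of 21 genes, namely the 15 largest falls and the called lower members of the ERK target and immediate early lists. A CRE stood in 4 of the 18 (22.2%), Ch25h, Dusp1, Ier2 and Plk2, against 1.91% of all 27457 promoters. A CArG box stood in 3 of the 18 (16.7%), Dusp5, Klf6 and Zfp36, against 1.64%. Of the other motifs searched, on both strands, the AP-1 site TGANTCA was in 1 (5.56%, against 7.33%), the FOXO site GTAAACA in 1 (5.56%, against 3.76%), the E-box CACGTG in 3 (16.7%, against 6.65%) and the ETS site CCGGAAGT in 0 (against 4.01%). Of the 15 largest rises 11 had a window, with a CRE or a CArG box in 0 and the AP-1 site in 3. These matches are descriptions, and no binding was measured. The 18 include genes taken from the immediate early list, for which such motifs are known, so their shares are no test. The windows below are printed because they hold a CRE or a CArG box, which is in capitals. That of Klf6 is not printed.
Plk2 (chr2:43702286-43702585, plus strand, CRE at -66 to -59): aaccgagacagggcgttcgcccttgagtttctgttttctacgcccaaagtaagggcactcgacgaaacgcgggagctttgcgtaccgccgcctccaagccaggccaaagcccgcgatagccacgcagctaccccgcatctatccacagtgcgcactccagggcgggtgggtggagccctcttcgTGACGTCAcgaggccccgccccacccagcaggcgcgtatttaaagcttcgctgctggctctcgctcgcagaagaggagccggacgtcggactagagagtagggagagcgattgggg
Ier2 (chr19:40399123-40399422, plus strand, CRE at -66 to -59): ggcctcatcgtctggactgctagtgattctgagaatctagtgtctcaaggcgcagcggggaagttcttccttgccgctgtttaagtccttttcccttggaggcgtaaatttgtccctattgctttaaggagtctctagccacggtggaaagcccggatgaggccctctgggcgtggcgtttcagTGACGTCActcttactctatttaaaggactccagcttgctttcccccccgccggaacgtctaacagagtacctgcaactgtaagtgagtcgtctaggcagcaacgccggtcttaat
Dusp1 (chr10:17184603-17184902, plus strand, CRE at -124 to -117): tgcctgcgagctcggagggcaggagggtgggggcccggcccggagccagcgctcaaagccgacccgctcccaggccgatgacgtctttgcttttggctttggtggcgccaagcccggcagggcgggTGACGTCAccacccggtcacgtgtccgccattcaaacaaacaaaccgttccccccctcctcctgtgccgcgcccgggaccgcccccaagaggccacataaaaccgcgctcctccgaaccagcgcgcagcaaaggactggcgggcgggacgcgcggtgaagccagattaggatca
Ch25h (chr1:241429317-241429616, minus strand, CRE at -77 to -70): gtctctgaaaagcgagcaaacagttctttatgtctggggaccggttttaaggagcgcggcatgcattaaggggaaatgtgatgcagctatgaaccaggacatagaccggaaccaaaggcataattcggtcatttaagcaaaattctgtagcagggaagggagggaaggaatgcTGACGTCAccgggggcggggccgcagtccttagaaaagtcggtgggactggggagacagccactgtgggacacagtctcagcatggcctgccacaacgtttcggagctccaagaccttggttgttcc
Dusp5 (chr1:262543524-262543823, plus strand, CArG boxes at -82 to -73 and -72 to -63): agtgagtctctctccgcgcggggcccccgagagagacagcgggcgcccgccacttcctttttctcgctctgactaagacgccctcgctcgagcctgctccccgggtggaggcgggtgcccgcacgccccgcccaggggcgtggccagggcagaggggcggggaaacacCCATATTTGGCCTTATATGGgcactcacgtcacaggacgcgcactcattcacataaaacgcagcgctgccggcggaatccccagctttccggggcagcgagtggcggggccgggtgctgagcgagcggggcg
Zfp36 (chr1:92799059-92799358, minus strand, CArG box at -32 to -23): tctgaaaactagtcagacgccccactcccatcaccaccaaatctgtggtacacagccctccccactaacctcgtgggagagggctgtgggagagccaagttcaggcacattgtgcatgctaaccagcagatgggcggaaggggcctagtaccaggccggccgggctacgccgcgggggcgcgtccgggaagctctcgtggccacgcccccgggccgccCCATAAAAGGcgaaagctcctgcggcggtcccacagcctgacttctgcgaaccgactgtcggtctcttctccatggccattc

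Most genes of vessel growth and Notch signalling did not pass. Of 24 tested, 1 was called higher, 2 lower and 21 did not pass, with a median of -0.12. Over all genes 2.59% were called higher and 5.29% lower. After D5W 1 of the 24 was called higher and 0 lower, where 2.54% and 9.65% of all genes were. After oxaliplatin 0 were called higher and 2 lower, where 0.698% and 1.45% of all genes were. Dll4, the Notch ligand of sprouting tip cells, fell by 0.18 ± 0.05 (adjusted p = 0.015), with -0.07 after D5W and -0.29 after oxaliplatin. Ackr3, a scavenging receptor for the chemokine Cxcl12, fell by 0.32 ± 0.09 (adjusted p = 0.0119) and by the same 0.32 after each infusion. Both calls were lost under quantile normalization and cyclic loess, where 2 of the 24 were called higher and 0 lower. Notch4, the endothelial Notch receptor, was called higher by 0.23 (adjusted p = 0.00952), but its other probe set fell by 0.19, so no direction can be given. Hey1, a Notch target, had 0.21 and Nrarp, a feedback inhibitor of Notch, -0.24, neither past the threshold (adjusted p = 0.071 and 0.0703). Vegfa, the ligand of Kdr, had -0.14 (adjusted p = 0.175). The endothelial marker list had 1 riser and 0 fallers among 16 tested and a median of -0.03, so its level stood near that of all genes. The riser was Sox18, an endothelial transcription factor, with 10.2 to 10.6 in sorafenib hearts and 9.75 to 10.3 in F68/PG/PEG400 hearts (0.36 ± 0.11, adjusted p = 0.0253).

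Other lists held 0 to 4 called members each, where 5.29% of all genes were called lower and 2.59% higher. Foxo3, a transcription factor restrained by insulin and AKT signalling, rose by 0.24, and Pik3ip1, an inhibitor of phosphatidylinositol 3-kinase and a FoxO target, by 0.29, the 2 of 16 genes of the FoxO list that were called, with a list median of 0.09. With the mean of all probe sets Foxo3 had 0.067 and Pik3ip1 0.066, neither of them called, and Foxo3 lost the call under 14 of 27 settings. Pik3ip1 stood at 10.04, 9.89, 9.80 and 9.92 after D5W then sorafenib and at 9.47, 9.73, 9.69 and 9.59 after D5W then F68/PG/PEG400. With oxaliplatin first it stood at 9.97, 10.09, 9.72 and 10.16 with sorafenib and at 9.72, 9.67, 9.77 and 9.66 with F68/PG/PEG400, so only 1 sorafenib heart lay within the vehicle range. Clock and Npas2, partners of Bmal1 in the circadian clock, fell by 0.28 and 0.41, the 2 called of 17 clock genes. Of 18 genes of ribosome biogenesis 4 fell, the nucleolar proteins Nop56, Nop58, Wdr12 and Ddx21, by 0.12 to 0.24, and 5 were lower after D5W and 0 after oxaliplatin, where 9.65% and 1.45% of all genes were lower. Under quantile normalization, centring or cyclic loess 1 of the 18 fell on average. G0s2, an inhibitor of the triglyceride lipase Pnpla2 and the 1 called of 20 genes of fatty acid oxidation and PPAR alpha, fell by 0.59 on average, with -1.01 after D5W (adjusted p = 0.0107) and -0.17 after oxaliplatin (adjusted p = 0.822). Tnfaip3, the brake on NF-kappaB signalling, fell by 0.42, with -0.75 after D5W and -0.09 after oxaliplatin, the 1 called of 17 genes of acute inflammation, whose median was -0.19. Sgk1 was the 1 called of 16 glucocorticoid targets, whose median was 0.09 for the average, 0.18 after D5W and -0.15 after oxaliplatin. Vldlr was lower by 0.19, the 1 called of 21 genes of the unfolded protein and integrated stress response, Ccng1 by 0.11, of 13 p53 targets, and Sqle by 0.32, of 12 genes of cholesterol synthesis. Cox5a was higher by 0.23, the 1 called of 23 genes of oxidative phosphorylation. The lists of heat shock, hypoxia, Nrf2, interferon, Id and BMP, cardiac stress and ion channel genes had 0 members called. Their medians lay between -0.07 and 0.01. Among the markers of other cells and tissues, those of smooth muscle and pericytes had 1 riser (Notch3) and 1 faller (Tagln) of 9, and those of skeletal muscle 1 riser (Tnnt3) and 1 faller (Myh1) of 3. The markers of cardiomyocytes, fibroblasts, macrophages, lymphocytes, neutrophils, red cells, adipocytes, atria, kidney and liver had 0 members called.

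The rises were mostly of dim probe sets. Of the 15 largest, 13 had a mean level under 7, where a probe set is close to the array's background, against 2 of the 15 largest falls. Tmc4, a transmembrane channel-like gene, was the brightest, with 8.24, 7.91, 8.36 and 8.08 after D5W then sorafenib and 7.81, 7.48, 7.80 and 7.59 after D5W then F68/PG/PEG400. After oxaliplatin it stood at 8.04, 7.93, 8.34 and 8.13 with sorafenib and at 7.55, 7.71, 7.47 and 7.51 with F68/PG/PEG400. All 8 sorafenib hearts lay above all 8 vehicle hearts, and the rise was 42.5% (0.51 ± 0.10, adjusted p = 0.000809). A mean over all its probe sets gave 0.20. Rnf39 rose by 0.47 ± 0.09 (adjusted p = 0.000867), with 6.81 to 7.07 in sorafenib hearts and 6.20 to 6.75 in F68/PG/PEG400 hearts. In all, 7 of the 15 had no overlap over both infusions, the other 5 being Prss8, Ccr3, Wwc1, Fmo4 and Chrnb4, all with a mean level under 7. Prss8, Ccr3, Wwc1 and Fmo4 averaged 5.87, 5.65, 5.77 and 5.96, below the filter level of 6. Such genes were kept only through the arrays where they were higher. Of the 575 genes with a mean under 6, 54 were called higher and 11 lower. Whether sorafenib hearts brought these 4 genes past the filter was not tested, so their separation is no support for a rise.

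Hpd and Dgkb had the largest rises but wide spreads. Hpd, an enzyme of tyrosine breakdown that is abundant in liver, stood at 7.67, 7.62, 8.19 and 7.31 after D5W then sorafenib and at 7.31, 7.40, 7.36 and 6.55 after D5W then F68/PG/PEG400. After oxaliplatin it stood at 7.61, 7.14, 8.18 and 7.45 with sorafenib and at 7.32, 6.65, 6.95 and 6.82 with F68/PG/PEG400. Its effect of 0.60 ± 0.17 (adjusted p = 0.0189) lost the call when any 1 of 3 arrays was left out. The liver list had a median effect of 0.40 with 0 of 6 tested members called, and Alb had 1.79 (adjusted p = 0.189), so the part of liver RNA in the Hpd value was not tested. Dgkb, a diacylglycerol kinase, rose by 0.63 ± 0.19 (adjusted p = 0.0293), with 0.81 after D5W and 0.45 after oxaliplatin, and lost the call under 8 of 27 settings. Aard rose by 0.59 ± 0.15 under all settings.

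**Figure D3:**
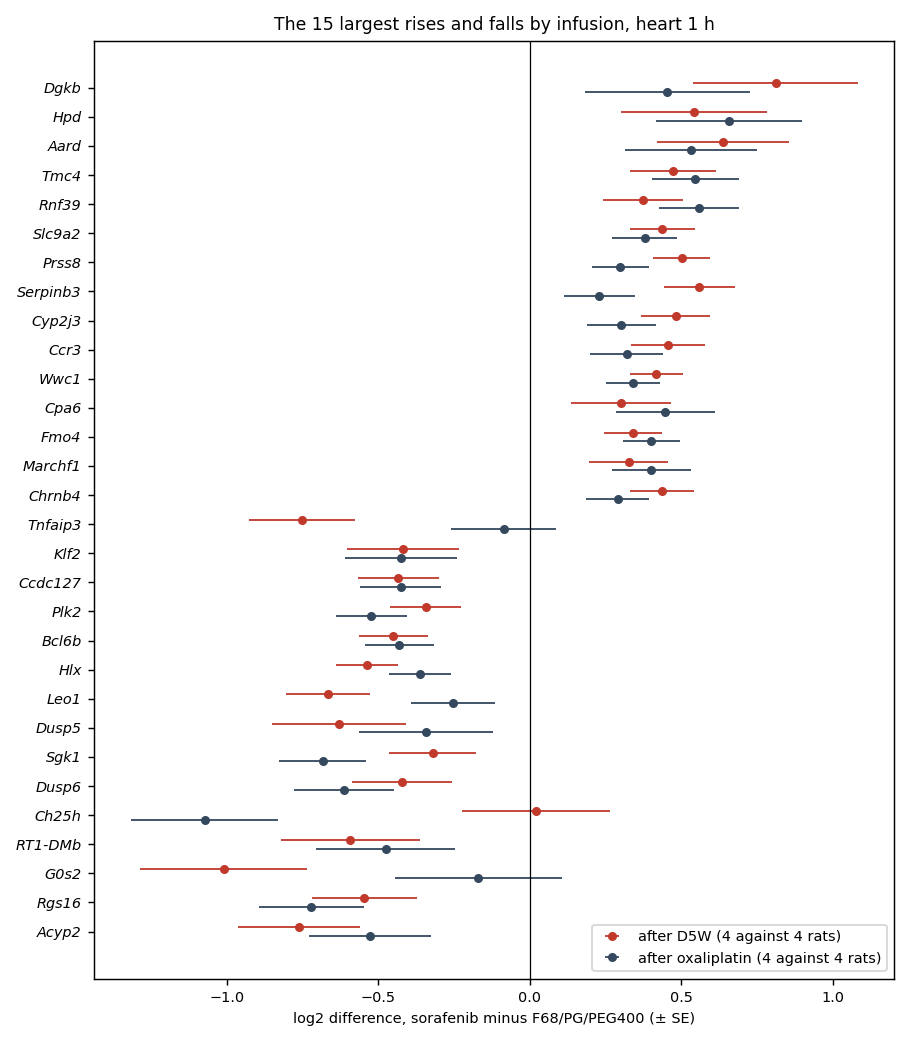
Sorafenib minus F68/PG/PEG400 at 1 h (log2, with SE) for the 15 largest rises and 15 largest falls of the average, shown for each infusion (4 against 4 rats). All 15 rises are above 0 after both infusions, and all 15 falls are below 0 after both except Ch25h, which is at 0.02 after D5W.

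The effects after both infusions were compared in separate rats. Of the 1379 genes called after D5W and the 243 called after oxaliplatin, 34 were called after both, which is 2.47% of the first list and 13.99% of the second, close to the 2.15% and 12.2% of all genes called after oxaliplatin and after D5W. Of these, 25 had the same direction, 13 lower and 12 higher. Bcl6b, Hlx, Plk2 and Rgs16 were among the 13, and Tmc4, Rnf39, Slc9a2, Wwc1 and Fmo4 among the 12. Of the D5W calls 54.3% had the same sign after oxaliplatin, and the correlation of both effects over the 11316 genes was 0.11, given as a description since genes share arrays.

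The sorafenib effect differed between infusions for 631 genes (5.58%), 538 with the higher effect after oxaliplatin (4.75%) and 93 with the lower (0.822%). The balance turned with the scaling, to 90 higher and 148 lower with quantile normalization, 85 and 203 with centring and 96 and 154 with cyclic loess. The count was 228 with the actin measure as a covariate, 238 after renewed quantile normalization and 33 in a fit of only the 16 arrays. Ch25h, which makes 25-hydroxycholesterol and is induced in inflamed tissue, had the largest difference, -1.10 ± 0.35 (adjusted p = 0.0443). It stood at 5.75, 5.66, 5.41 and 5.28 after D5W then sorafenib and at 5.59, 5.44, 5.47 and 5.51 after D5W then F68/PG/PEG400. After oxaliplatin it stood at 5.80, 5.75, 5.62 and 5.50 with sorafenib and at 7.36, 6.34, 6.32 and 6.95 with F68/PG/PEG400. The raised group was thus the vehicle group infused with oxaliplatin, and sorafenib hearts lay between 5.28 and 5.80 over both infusions. The difference lost the call under 17 of 27 settings. Ch25h averaged 5.87 over the 96 heart arrays, below the filter level of 6. Of the 4 groups only oxaliplatin then F68/PG/PEG400 lay above 6, and the others were close to the array's background.

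Calcrl, the receptor shared by adrenomedullin and calcitonin gene-related peptide, had 8.23, 8.33, 7.88 and 8.13 after D5W then sorafenib and 7.44, 7.81, 7.64 and 8.19 after D5W then F68/PG/PEG400. After oxaliplatin it had 7.71, 7.84, 7.54 and 7.61 with sorafenib and 8.36, 8.41, 7.99 and 8.24 with F68/PG/PEG400. The effect was 0.37 after D5W and -0.58 after oxaliplatin, and the difference was -0.95 ± 0.19 (adjusted p = 0.00266). Hip1, a clathrin adaptor, had the opposite course, -0.43 after D5W and 0.42 after oxaliplatin (difference 0.86 ± 0.15, adjusted p = 0.000745), but with the mean of its 5 probe sets the difference was 0.21 and not called (adjusted p = 0.144). Scn7a, a sodium channel gene of nerve and glia, had -0.49 after D5W and 0.39 after oxaliplatin (difference 0.87 ± 0.23, adjusted p = 0.0161). Asb18, Mllt6, Rgs10, Smim5, Sgms1 and Far1 complete the 10 largest, the first 4 with the higher effect after oxaliplatin. Asb18 lost the call under 17 of 27 settings. The mean of all probe sets gave 0.32 for Mllt6 and -0.43 for Sgms1, both still called. With the actin measure as a covariate Calcrl, Hip1, Scn7a, Sgms1, Mllt6, Rgs10 and Smim5 passed, and Ch25h, Asb18 and Far1 did not (adjusted p = 0.0655, 0.0522 and 0.0592). Of the 58 genes named for the average effect, Ch25h was the 1 whose effect differed between infusions, where 5.58% of all genes differed. The 58 were chosen by a call in the average, which favours genes with like effects after both infusions. The count is therefore no result about agreement between infusions.

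**Figure D4:**
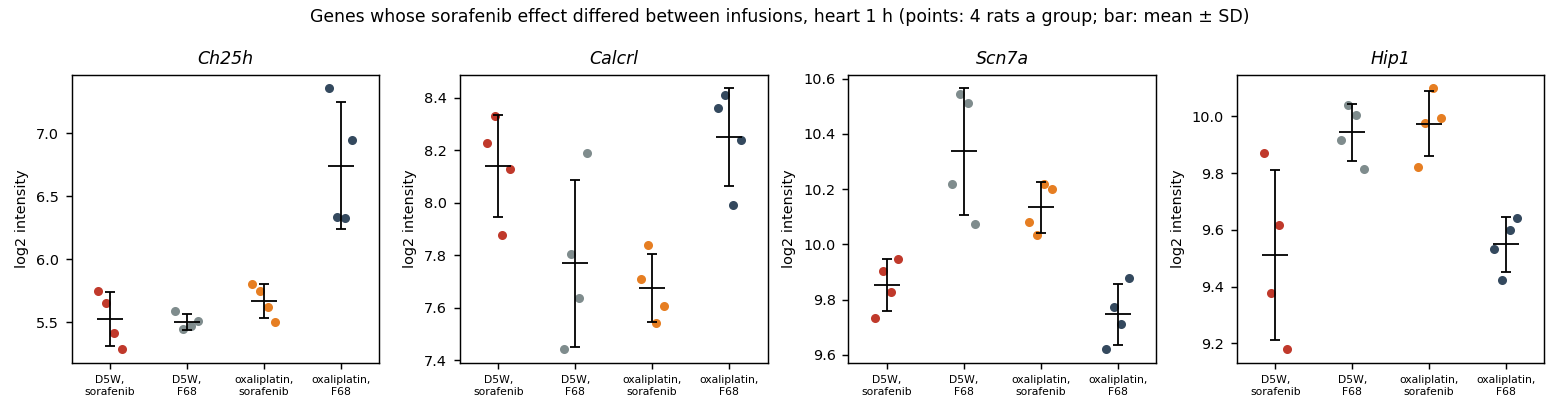
Level of Ch25h, Calcrl, Scn7a and Hip1 in each rat at 1 h (log2 intensity, points), with the mean and SD of each group of 4, for D5W then sorafenib, D5W then F68/PG/PEG400 (F68), oxaliplatin then sorafenib and oxaliplatin then F68. Ch25h is raised only in the oxaliplatin then F68 hearts (6.32 to 7.36), and the other 3 genes cross over between infusions.

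Later times were read in other rats, with the same 4 treatments at 6 h and 24 h. Effects of the falling genes split by time. Dusp6 had -0.52, -0.69 and -0.61 at 1, 6 and 24 h, Plk2 -0.43, -0.42 and -0.46, and Hlx -0.45, -0.39 and -0.37, all called at each time, and their differences between times did not pass. Bcl6b had -0.44, -0.72 and -0.81, and its effect at 1 h was smaller than at 6 h (difference 0.28, adjusted p = 0.0444). Kdr had -0.21, -0.50 and -0.83, and its effect at 1 h differed from that at 24 h by 0.62 (adjusted p = 0.00142). In contrast Acyp2 had -0.64, 0.43 and -0.16, G0s2 -0.59, 0.62 and 0.23, and Klf6 -0.38, 0.27 and -0.28. For these 3 the difference between 1 and 6 h passed, with -1.08, -1.21 and -0.65. All values at 6 h are averages over both infusions and are not given for each. The median actin measure at 6 h was 0.684 in D5W then sorafenib hearts and 0.260 in oxaliplatin then sorafenib hearts. Its part in the change of sign at 6 h was not tested.

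Of all genes tested 4546 were called at 6 h (40.2%), 2502 higher (22.1%) and 2044 lower (18.1%), and 1528 at 24 h (13.5%), 449 higher (3.97%) and 1079 lower (9.54%). Of the 15 largest falls, 7 were called lower at 6 h and 3 higher, and 5 were called lower at 24 h and 0 higher. Of the 15 largest rises, 0 were called higher at 6 h and 7 lower, and 1 was called higher at 24 h. The effect at 1 h differed from that at 6 h for 4110 of 11316 genes (36.3%), 1577 higher at 1 h (13.9%) and 2533 lower (22.4%). This balance also turned with the scaling, to 2233 higher and 1754 lower with centring and 1809 and 1685 with quantile normalization. It differed from that at 24 h for 334 (2.95%), 239 higher at 1 h (2.11%) and 95 lower (0.84%). Among the hearts at 6 h, the D5W then sorafenib group had an actin measure with a median of 0.684, against 0.268 in D5W then F68/PG/PEG400, wider than at 1 h. The 10 largest differences between 1 and 6 h were Wasf2, Zdhhc20, Herc1, Bod1l1, Ankrd11, Cped1, Nfix and Arhgap5, whose effects were higher at 6 h, and Reg3g and Reg3b, lower at 6 h. Reg3b lost the call under 12 of 25 settings, and Cped1 with the actin measure as a covariate (adjusted p = 0.0536). Wasf2 and Bod1l1 averaged 4.64 and 4.76 and were above 6 in 8 of 96 arrays, 4 of them the D5W then sorafenib hearts at 6 h and 0 at 1 h, so they passed the filter on low values through the group where they were high and had to differ. Their effects at 1 h lay between -0.13 and 0.41. Only Herc1 among them was called at 1 h (0.18, adjusted p = 0.0431).

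Macrophage genes marked the contrast between 1 and 24 h. The macrophage marker list had a median effect of 0.07, -0.55 and -1.06 at 1, 6 and 24 h. Of its 12 members 0 were called at 1 h, where 7.88% of all genes were, so this 0 alone says little. Between 1 and 24 h 11 of the 12 differed, against 2.95% of all genes. The 10 largest differences to 24 h were F13a1, Aif1, C1qa, C1qb, C1qc, Lyve1, Mrc1, Fcmr, Pilra and Rbp7, most of them known from tissue macrophages. F13a1, a macrophage transglutaminase, had an effect of 0.00 at 1 h and -2.01 at 24 h, and C1qb, a complement subunit, 0.09 and -1.63. Mrc1, the mannose receptor, had 0.20 at 1 h and -1.36 at 24 h, and Lyve1 0.19 and -1.37. At 1 h the mean level of the list ranged from 8.52 to 8.99 in sorafenib hearts and from 8.47 to 9.15 in F68/PG/PEG400 hearts.

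**Figure D5:**
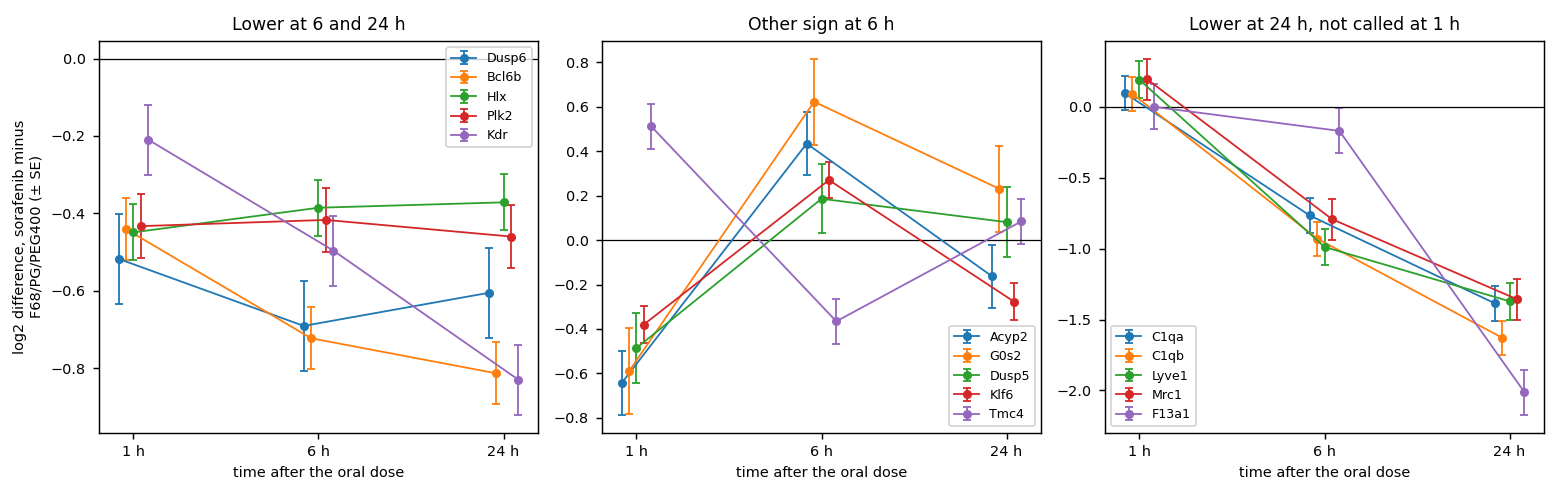
Sorafenib minus F68/PG/PEG400 (log2, average of both infusions, with SE, 8 against 8 rats at each time) at 1, 6 and 24 h for genes lower at 6 and 24 h (left), genes whose sign differs at 6 h (middle) and macrophage genes (right). Bcl6b goes on to -0.81 at 24 h, Acyp2 and G0s2 are at 0.43 and 0.62 at 6 h, and F13a1 is at 0.00 at 1 h and -2.01 at 24 h.

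In the other tissues of the same animals at 1 h, values are given side by side with no test between tissues. Dusp6 had -0.52 in heart, 0.00 in kidney and -0.07 in liver. Spry4, another ERK feedback gene, had -0.26 in heart (not called), -0.10 in kidney and -0.38 in liver, where it was called (adjusted p = 0.000868). Bcl6b had -0.44 in heart, -0.18 in kidney and -0.04 in liver, and Plk2 -0.43, -0.25 and -0.24. Klf2 had -0.42, -0.37 and -0.11, and Ackr3 -0.32, -0.12 and -0.68, the last called in liver (adjusted p = 0.00941). Tnfaip3 and Ch25h also fell in liver, by 0.88 and 0.45. Further named genes called in liver were Adamts1 (-0.73), Nrarp (-0.30), Fosl1 (-0.28) and Smim5 (-0.26), and Angpt2 (0.49), Rgs10 (0.39) and C1qc (0.38). The share called over all 11619 liver genes is not given, so the number of these calls is no result about the named genes. Of the genes named here 0 were called in kidney at 1 h, and those tested there shared an adjusted p of 0.9999. The share called over all 12309 kidney genes is not given, so this 0 is no result about these genes. Sunitinib at 5 mg/kg, another VEGF receptor inhibitor whose vehicle was water and whose rats were dosed on another day, gave -0.59 for Rgs16 (adjusted p = 0.0474), -0.19 for Dusp6 and -0.12 for Bcl6b in heart at 1 h, the last 2 not called.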

How the data were processed

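Hearts, kidneys and livers were profiled on Affymetrix Rat Genome 230 2.0 arrays. The authors summarised the probe sets with RMA, whose version is not given in the sources used here, and deposited log2 intensities in 1 table. Whether tissues were normalized together is not stated. Per the labels, RNA with an integrity number of 7.5 or more was used. Of 31099 probe sets, 57 controls were left out, and the platform annotation gave 1 gene symbol for 20826, several for 436 (not named) and none for 9837. Each of the 14217 genes was represented by its probe set with the highest mean over the heart arrays. Genes above 6 in at least 4 heart arrays were kept, 11316 in all.

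limma 3.58.1 in R 4.3.3 was fitted to all 96 heart arrays in 24 groups of 4 rats, which share 1 estimate of the spread, with eBayes and Benjamini-Hochberg adjustment. Replicates were separate rats, and their number limits the precision. The 1 liver and 1 kidney array whose markers were those of the other tissue were left out of the tissue comparison. Named genes were the 15 largest rises and 15 largest falls of the average among those called. To these came the 10 largest differences between infusions and between times, and all called members of the lists. Members of the lists of kinases, ERK targets and vessel growth could also be named without a call. The genes and lists (pathways, stress responses and cell markers) were chosen with earlier results of these data known. The methods' other contrasts were not used here. Alternatives were fits of fewer arrays, quantile normalization, median centring, other filters and probe set rules, the actin measure as a covariate, array weights and leaving out each array. Cyclic loess was chosen after seeing the data. The fit was tested on simulated data with known changes.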

Additional observations from a re-analysis of the deposited data

Results flagged for a closer look

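In 9 of 124 groups of 4 hearts examined 1 rat stood far from the other 3 by Dixon's criterion, which chance meets in about 1 of 20 groups. After D5W then sorafenib these were Rnf39 at 7.03, Clock at 8.38 and the mean distance of an array to its group at 24.3. After oxaliplatin then sorafenib it was Sox18 at 10.45. After D5W then F68/PG/PEG400 they were Dusp5 at 8.11, Bcl6b at 9.18, Hlx at 8.71, Hpd at 6.55 and a mean distance of 24.6.

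The sorafenib effect differed between infusions, after oxaliplatin minus after D5W, for 631 genes. Among the named genes the difference was 1.03 for Asb18, 0.90 for Mllt6, 0.87 for Scn7a, 0.86 for Hip1, 0.82 for Rgs10 and 0.81 for Smim5. It was -1.10 for Ch25h, -0.95 for Calcrl, -0.93 for Sgms1, -0.81 for Far1 and -0.67 for Angpt1, the ligand of the endothelial receptor Tek. Angpt1 had 0.05 after D5W and -0.62 after oxaliplatin.

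The effect at 1 h minus that at 6 h passed for 4110 genes. Negative differences were -1.49 for Wasf2, -1.41 for Zdhhc20, -1.39 for Herc1, -1.37 for Bod1l1, -1.33 for Ankrd11, -1.32 for Cped1, -1.30 for Nfix, -1.28 for Arhgap5, -1.21 for G0s2 and -1.08 for Acyp2. Smaller ones were -0.84 for Leo1, -0.76 for Angpt1, -0.67 for Dusp5, -0.65 for Klf6, -0.53 for Ccdc127, -0.51 for Spry1, -0.50 for Vldlr, -0.39 for Clock, -0.36 for Hip1, -0.34 for Araf, -0.28 for Ddx21, -0.23 for Nop58 and -0.15 for Ccng1.

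Positive differences between 1 and 6 h were 1.29 for Reg3g, 1.25 for Reg3b, 0.88 for Tmc4, 0.83 for Serpinb3, 0.77 for Ccr3, 0.75 for Hpd, 0.69 for Slc9a2, 0.68 for Prss8, 0.65 for Chrnb4, 0.63 for Cpa6, 0.59 for Wwc1 and 0.57 for Cyp2j3. Smaller ones were 0.56 for Notch4, 0.53 for Notch3, 0.51 for Tnnt3, 0.49 for Rnf39, 0.46 for Fmo4, 0.35 for Marchf1, 0.30 for Fos, 0.28 for Bcl6b and 0.27 for Foxo3.

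The effect at 1 h minus that at 24 h passed for 334 genes. It was 2.01 for F13a1, 1.73 for Aif1, 1.72 for C1qb, 1.56 for Lyve1, 1.55 for Mrc1, 1.51 for Fcmr, 1.48 for C1qa, 1.47 for Pilra, 1.44 for C1qc, 1.23 for Rbp7, 0.62 for Kdr, 0.55 for Marchf1, 0.44 for Wwc1 and -0.66 for Angpt1.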

How the results depend on the processing

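The average effect called 892 genes. The count was 415 with quantile normalization (206 higher, 209 lower), 441 with cyclic loess (219 higher, 222 lower) and 668 with centring (408 higher, 260 lower), and 497 to 998 with 1 array left out, the fewest without oxaliplatin then F68/PG/PEG400 replicate 3. Of the 892, 359 were also called with quantile normalization and 375 with cyclic loess. After D5W the 1379 calls were 818 in a fit of the 16 arrays, 326 with quantile normalization, 759 with centring (542 higher, 217 lower), 383 with cyclic loess and 525 to 1888 with 1 array left out, the extremes being without D5W then F68/PG/PEG400 replicate 3 and replicate 4. After oxaliplatin the 243 calls were 49 in a fit of the 16 arrays, 389 with the mean of all probe sets, 141 with the actin covariate, 539 with array weights and 10 to 261 with 1 array left out, the fewest without oxaliplatin then sorafenib replicate 3. The 631 differences between infusions were 33 in a fit of the 16 arrays, 238 with quantile normalization (90 higher, 148 lower), 288 with centring (85 higher, 203 lower), 228 with the actin covariate, 1018 with array weights, 250 with cyclic loess (96 higher, 154 lower) and 191 to 1143 with 1 array left out, the extremes being without D5W then F68/PG/PEG400 replicate 3 and replicate 4. The difference to 6 h had 3489 to 5261 calls and that to 24 h 250 to 423 over the settings with all arrays, and 3845 to 4201 and 252 to 409 when 1 array was left out. Fos turned to -0.039 with the mean of all probe sets. Of the 15 largest falls 9 and of the 15 largest rises 11 passed under every setting in which they were tested, and of the called list members 9 of 34 did. The cause was not tested. No paired analysis was possible because the labels give the groups no shared replicate numbers. Small differences at levels near background are measured poorly.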
